A study of Mus musculus with 2 samples.

Results

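Runx1 and the gene-poor stretch upstream of it were examined for 5-hydroxymethylcytosine (5hmC) in mouse mast cells with and without TET2. The members are all deposited 5hmC peaks with a summit at chr16:92550000-93350000 of the mm9 build, 129 of the 38228 peaks in the 4 deposited lists. They comprise 58 of 18160 peaks of the Tet2+/+ library called by itself, 50 of 16875 of the Tet2-/- library called by itself, 20 of 2724 regions called higher in Tet2+/+ and 1 of 469 called higher in Tet2-/-. The first 2 kinds are called own peaks here, and the last 2 are peaks of 1 library called with the other library as its control. The interval was chosen by the counts of regions called higher in Tet2+/+, so those counts and all values from the same comparison are given as a description, with no test.

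RUNX1 is a DNA-binding transcription factor that, bound to its partner CBFB, sets up definitive blood formation and later acts in many blood lineages, mast cells among them. Its gene is read from a distal and a proximal promoter, with a long first intron between them in which blood enhancers are known, and the stretch upstream holds few genes. TET enzymes oxidise 5-methylcytosine to 5hmC, an intermediate of DNA demethylation known to collect over gene bodies and enhancers. The cells were bone marrow-derived mast cells of C57BL/6 mice aged 6 to 12 weeks, grown with interleukin-3 and, after 4 weeks, sorted for surface Kit and FcεRIα. The 2 groups were Tet2+/+ and Tet2-/-, with no further allele or treatment in the labels, which do not say how the Tet2 allele was made. There was 1 library per genotype from cells of 2 animals, and whether their DNA was pooled is not given in the sources used here. Knockout cultures matured less completely, per the labels, which is why cells were sorted, and no expression data were used with which the sorted cells could be checked against markers. No replicate spread exists, so every interval below covers counting error only and compares these 2 libraries, not the genotypes.

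From the fold and p of each peak, the number of sequenced fragments over its summit was recovered. The Tet2-/- library was 1.18 times as deep, with a genome background of 1.72 fragments per position against 1.46, and its counts were multiplied by 0.848 where the 2 libraries are set against each other. In the rule that defines the interval, Runx1 runs from about 92.60 to 92.83 Mb on the minus strand, so upstream means higher coordinates. The 230 kb of the gene, the 520 kb upstream of it and a 50 kb downstream flank were described separately. Because the gene's ends are approximate and no mm9 gene models were used here, no peak was assigned to an exon, an intron or a UTR. In RefSeq's GRCm38 table, used for names only, Clic6 is the protein-coding neighbour downstream and Setd4 the one upstream, and the 8 genes between Runx1 and Setd4 are 7 long non-coding RNAs and the microRNA Mir802.

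The 2 Runx1 promoters are shown because 5hmC arises mainly at CpG dinucleotides and the gene's 2 starts differ widely in them. Each line gives the 250 bases before the start from RefSeq, build GRCm38.p6, minus strand, read 5′ to 3′ with every CpG in capitals. The distal one is at chr16:92826075-92826324 and the proximal one at chr16:92697330-92697579, positions of that build that were not carried over to mm9.
Distal: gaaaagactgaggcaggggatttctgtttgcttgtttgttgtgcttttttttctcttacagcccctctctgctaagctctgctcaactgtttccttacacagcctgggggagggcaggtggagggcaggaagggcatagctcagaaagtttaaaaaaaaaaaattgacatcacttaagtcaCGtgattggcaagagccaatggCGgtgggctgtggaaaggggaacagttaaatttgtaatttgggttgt
Proximal: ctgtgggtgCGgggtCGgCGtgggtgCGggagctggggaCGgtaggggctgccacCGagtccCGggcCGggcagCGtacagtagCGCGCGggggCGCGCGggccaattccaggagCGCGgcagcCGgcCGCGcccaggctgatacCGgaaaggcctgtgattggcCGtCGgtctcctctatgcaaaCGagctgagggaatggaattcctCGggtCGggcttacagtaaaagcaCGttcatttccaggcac
The distal promoter held 2 CpGs and the proximal one 27. A CG, which reads the same on both strands, was in 92.1% of 32851 promoters of this length, whose median was 6. More CpGs than in the distal promoter were found in 71.0% of them, and fewer than in the proximal promoter in 91.4%. Whether a peak lies at either promoter was not assessed, since these positions and the peaks are of different builds.

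Counted as deposited, own peaks were denser over the gene than upstream in both libraries, but not among peaks of high fold. The contrast was narrowly beyond counting error in Tet2+/+ and within it in Tet2-/-. Within the gene there were 24 in Tet2+/+ and 20 in Tet2-/-, or 10.4 and 8.70 per 100 kb. The upstream stretch had 30 and 29, or 5.77 and 5.58 per 100 kb. Gene over upstream density was 1.81 (counting interval 1.01 to 3.20) in Tet2+/+ and 1.56 (0.836 to 2.85) in Tet2-/-. The Tet2-/- interval includes equal density. Over the whole genome the densities were 0.709 and 0.659 per 100 kb. Limited to peaks with a fold of at least 5, the order turned round: Tet2+/+ had 3 in the gene and 22 upstream, or 1.30 and 4.23 per 100 kb, and Tet2-/- had 7 and 17, or 3.04 and 3.27 per 100 kb. In the downstream flank Tet2+/+ had 4 own peaks and Tet2-/- had 1. Thus the interval had 8 more own peaks in Tet2+/+, of which 4 lay in the gene, 3 in the flank and 1 upstream. Neighbouring Tet2+/+ summits were a median of 8.47 kb apart in the gene and 12.6 kb upstream, and the widest gap between them was 71.6 kb, upstream.

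Gene peaks and upstream peaks differed in shape more than in height. Summit coverage in Tet2+/+ ranged from 12 to 37 fragments in the gene (median 24) and from 13 to 50 upstream (median 26). The corresponding Tet2-/- medians were 22.5 and 20 fragments, before scaling. Summits were therefore of similar height in the 2 segments. The authors' fold, which sets a summit against its surroundings, had a median of 4.10 in the gene and 6.40 upstream in Tet2+/+, and of 4.41 and 5.28 in Tet2-/-. Genome medians were 5.48 and 5.51. Upstream peaks were also broader in Tet2+/+, with a median width of 424 bp against 291 bp in the gene, while in Tet2-/- the medians were 328 and 322.5 bp.

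**Figure D1:**
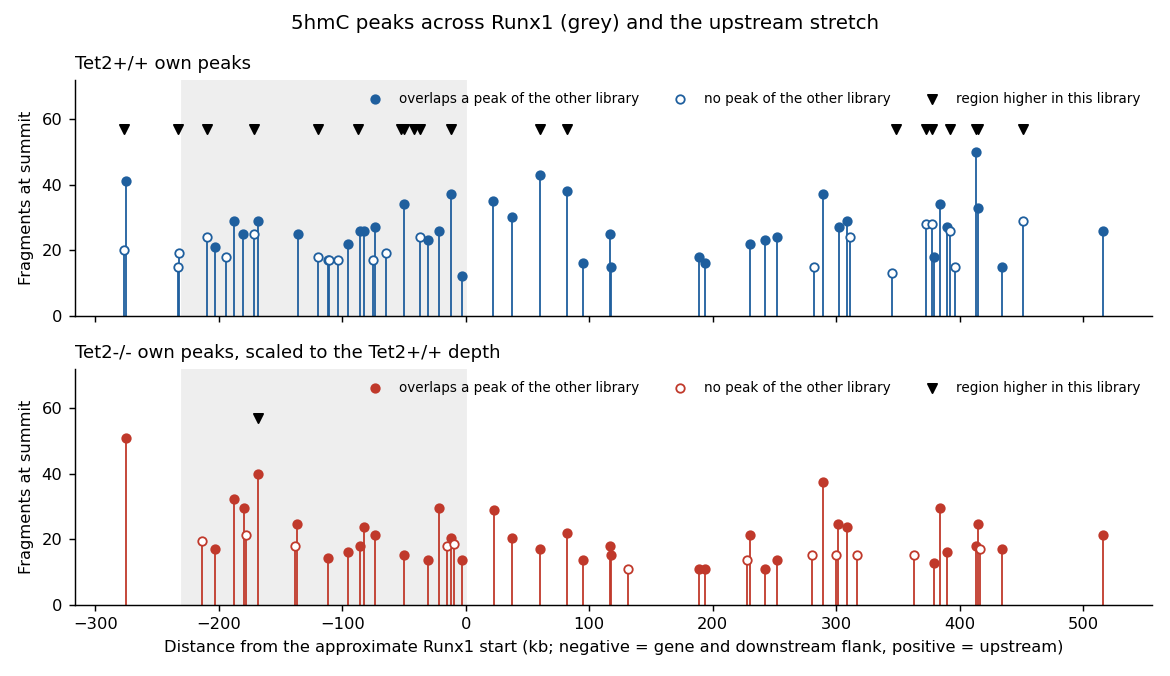
Fragments at the summit of each own peak (y axis) against its distance in kb from the approximate Runx1 start (x axis), with Tet2+/+ above and Tet2-/- below, the latter scaled to the depth of Tet2+/+. Filled points overlap a peak of the other library, open points do not, triangles mark regions called higher in that library, and grey marks the gene; 20 triangles stand in the Tet2+/+ panel and 1 in the Tet2-/- panel.

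Coverage around the peaks was highest over the gene. The peak caller's expectation for an own peak is the library's mean coverage of the surrounding 10 kb, which converts to a number of fragments in that window, the peak's own included. At gene peaks these windows held a median of 237.5 fragments in Tet2+/+ and 224 in Tet2-/-. At upstream peaks the medians were 156 and 153. Across own peaks of the genome they were 107 and 115, and the genome backgrounds correspond to 73.0 and 86.0 fragments. So windows over the gene stood above the upstream windows by their medians, and both stood above the genome median, in each library. The fullest gene windows held 360 fragments in Tet2+/+, at 92.7447 Mb, and 341 in Tet2-/-, at 92.6914 Mb. The emptiest gene windows, with 85 and 101 fragments, were those of the peaks at 92.8269 and 92.8271 Mb, the last before the approximate gene start. These values exist only where a peak was called with an expectation above the genome background, and neighbouring windows overlap. In the interval that left out 1 peak, at 93.0722 Mb in Tet2-/-.

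**Figure D2:**
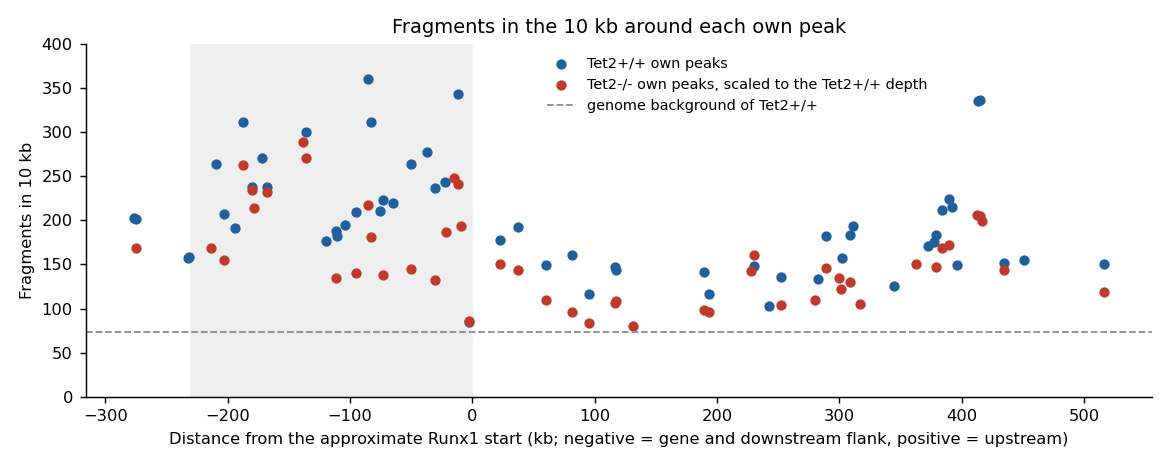
Fragments in the 10 kb around each own peak (y axis) against distance in kb from the approximate Runx1 start (x axis), in Tet2+/+ (blue) and in Tet2-/- scaled to its depth (red; 1 peak at the genome background is not drawn). The dashed line is the genome background of 73.0 fragments, grey marks the gene, and the peak nearest to the gene start lies close to that line while the highest gene window reaches 360.

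The strongest Tet2-/- own peak of the interval, in the downstream flank at chr16:92554580-92555103, had 60 fragments and a −log10 q of 43.6. At that place Tet2+/+ had 41 fragments and a −log10 q of 22.9, the third highest of its own peaks there, so this leading place was shared. Inside the gene and upstream, the leading 3 peaks were mostly different places, but each of them overlapped an own peak of the other library. The difference is thus not one of presence, but coverage differed at many of these places, as given below. In Tet2+/+ the 3 gene peaks of highest −log10 q were at chr16:92780032-92780433 with 34 fragments (95% Poisson interval 23.5 to 47.5), at chr16:92817707-92818154 with 37 and at chr16:92661699-92662294 with 29. In Tet2-/- they were at chr16:92661803-92662432 with 47 fragments (34.5 to 62.5), at chr16:92807901-92808267 with 35 and at chr16:92641922-92642270 with 38. Only the place near 92.662 Mb was among the leading 3 in both. Upstream, Tet2+/+ was led by chr16:92889619-92890251 with 43 fragments, chr16:92911552-92912093 with 38 and chr16:93242762-93243265 with 50. Tet2-/- was led by chr16:93119027-93119566 with 44 fragments, chr16:92852248-92852958 with 34 and chr16:93213879-93214290 with 35. No upstream place was among the leading 3 in both. Apart from the place near 92.662 Mb, these gene and upstream leaders of Tet2+/+ all overlapped regions called higher in Tet2+/+. Their summit ratios over scaled Tet2-/- ran from 1.72 to 2.81, with counting intervals that excluded equality. The Tet2-/- leader near 92.662 Mb overlapped the region called higher in Tet2-/-. At the other Tet2-/- leaders no region was called higher in either library.

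Most own peaks of the interval had a counterpart. A Tet2-/- peak shared 1 bp or more with 38 of the 58 in Tet2+/+ (65.5%, 95% exact Clopper-Pearson interval 51.9 to 77.5), against 61.2% over the genome. Conversely 38 of the 50 in Tet2-/- (76%, 61.8 to 86.9) met a peak of Tet2+/+, against 65.8%. Both intervals include the genome value. For Tet2+/+ the share was 15 of 24 in the gene (62.5%) and 22 of 30 upstream (73.3%), and for Tet2-/- 15 of 20 (75%) and 22 of 29 (75.9%), with intervals that overlap between the segments.

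Peaks without a counterpart were mostly of modest height, apart from a few upstream in Tet2+/+ and those of Tet2-/- in the gene. The 9 such Tet2+/+ peaks of the gene had 17 to 25 fragments. Upstream the 8 Tet2+/+ peaks without a counterpart had 13 to 29 fragments, and 4 of them, at 93.2026, 93.2076, 93.2221 and 93.2813 Mb, had 26 to 29. The 7 upstream Tet2-/- peaks without a counterpart had 13 to 20 fragments, none above the segment's median of 20. In the gene the 5 of Tet2-/- had 21 to 25 fragments, on both sides of the segment's median of 22.5. Of these, the 3 at 92.6165, 92.6517 and 92.6914 Mb lay in its downstream part, and those at 92.8148 and 92.8209 Mb lay close to its start.

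Called directly against each other, the libraries differed at 21 regions, of which 20 were higher in Tet2+/+. These were 2 in the downstream flank, 9 in the gene and 9 upstream, or 3.91 per 100 kb of gene and 1.73 per 100 kb upstream, with 0.106 per 100 kb in the genome. Seen from the own peaks, 16 of the 58 in Tet2+/+ (27.6%, 16.7 to 40.9) overlapped such a region, where the genome share was 13.8%. The share was 6 of 24 in the gene (25%) and 8 of 30 upstream (26.7%). It was 10 of the 20 Tet2+/+ peaks without a Tet2-/- counterpart (50%, 27.2 to 72.8, genome share 21.2%) and 6 of the 38 with one (15.8%, 6.02 to 31.3, genome share 9.17%). Among the 50 Tet2-/- own peaks 1 (2.00%) overlapped a region called higher in Tet2-/-, where the genome share was 2.77%. The interval was picked on these calls, so nothing is read from the shares. Limited to −log10 q of at least 5, the calls favouring Tet2+/+ numbered 4 in the gene and 8 upstream, and limited to a fold of at least 5 they numbered 3 and 2.

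In the gene, the 5 regions of highest −log10 q among those higher in Tet2+/+ lay between 92.7102 and 92.7932 Mb. The leading one, at chr16:92780081-92780408, had 34 fragments in Tet2+/+ where the peak caller expected 6.78 from Tet2-/-, a deposited fold of 4.50. The Tet2-/- peak at this place had 18 fragments, or 15.3 after scaling. The expectation was thus lower than the Tet2-/- summit, and the ratio of the 2 summits, 2.23, was smaller than the fold. At chr16:92788285-92788541 there were 22 fragments (13.8 to 33.3) over 3.39 expected, and at chr16:92777410-92777640 there were 21 (13.0 to 32.1) over 3.39. Neither of the latter overlapped an own peak of either library, although their fold was 5.24 and 5.01. The region at chr16:92710016-92710304 had 18 fragments over 2.32 expected, the largest fold of the 20 regions at 5.72. That at chr16:92792992-92793358 had 24 over 5.94. Both overlapped an own peak in Tet2+/+ alone. The other 4 gene regions, at 92.6202, 92.6582, 92.7431 and 92.8180 Mb, had 19 to 37 fragments and folds from 2.61 to 3.82.

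Upstream, the 9 regions higher in Tet2+/+ fell into a near and a far group. The near group was 2 regions 60.02 and 81.8 kb from the approximate gene start. At chr16:92889906-92890173 there were 43 Tet2+/+ fragments (31.1 to 57.9) over 9.33 expected, and the Tet2-/- peak had 20, or 17.0 after scaling. At chr16:92911636-92911882 there were 38 over 8.48 expected, and 26 in the Tet2-/- peak, or 22. Coverage at both was thus lower in Tet2-/-, where a called peak was still present.

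The far group held 7 regions in 103 kb, from 93.1787 to 93.2813 Mb, 349 to 451 kb from the approximate gene start. Its leading region, chr16:93242809-93243239, had 50 Tet2+/+ fragments (37.1 to 65.9) over 9.33 expected, a deposited fold of 4.94 and the highest −log10 q of the 20 regions, 14.6. The Tet2-/- peak there had 21 fragments, or 17.8 after scaling. At chr16:93281238-93281540 there were 29 fragments over 4.41 expected and at chr16:93202537-93202973 there were 28 over 4.24, with no Tet2-/- peak at either. The remaining 4 regions, at 93.1787, 93.2076, 93.2221 and 93.2452 Mb, had 13 to 33 fragments. Within 1 kb of the stretch between its outermost summits the Tet2+/+ library had 11 own peaks and the Tet2-/- library 8, and in each 6 had a counterpart.

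Between the 2 groups lay 267 kb with no region called higher in either library. It was not empty of 5hmC: 14 Tet2+/+ and 16 Tet2-/- own peaks had their summits there, and 11 of the 14 had a counterpart. The Tet2-/- leader at 93.1194 Mb, with 44 fragments (37.3 after scaling) where Tet2+/+ had 37, was among them.

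Whether a lowered region had an own peak in the other library was mixed. Of the 20 regions higher in Tet2+/+, 11 overlapped an own peak of Tet2+/+ alone and 5 (25%, 95% exact interval 8.66 to 49.1) overlapped one in both libraries, where the genome share was 36.9%. The 5 were those at 92.7802 and 92.8180 Mb in the gene and at 92.8900, 92.9118 and 93.2431 Mb upstream. Among the 11, the region at 93.2452 Mb met only a Tet2+/+ peak, but that peak itself overlapped a Tet2-/- own peak. The other 4 (20%, 5.73 to 43.7) overlapped no own peak, where the genome share was 7.56%, and 3 of these were in the gene. These regions are the calls the interval was picked by, so the shares are a description.

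**Figure D3:**
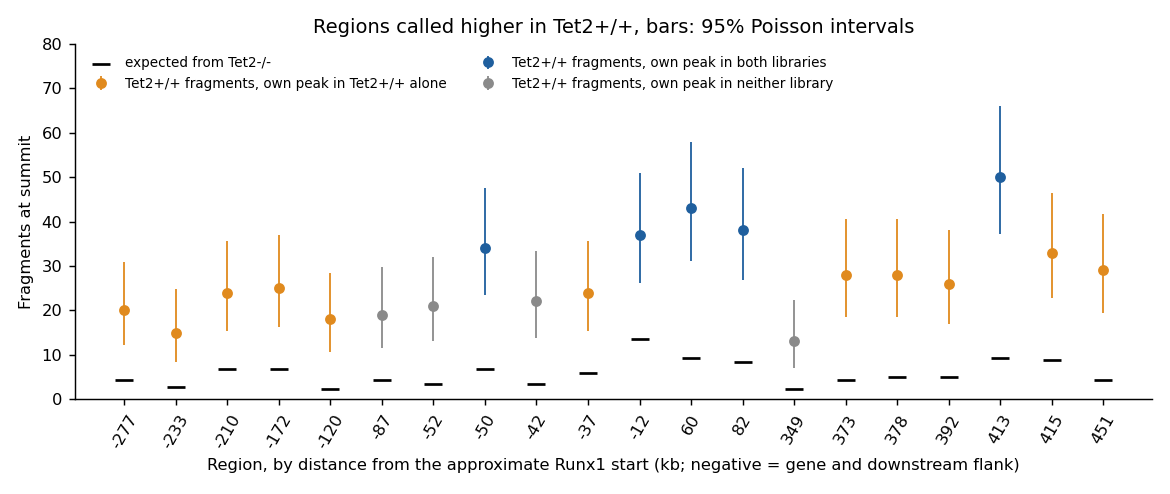
Tet2+/+ fragments at the summit (points, with 95% Poisson intervals) and the number expected from Tet2-/- (dashes) for the 20 regions called higher in Tet2+/+, in order of distance from the approximate Runx1 start in kb (x axis). Colours give the own peaks each region overlaps. Each lower interval end is above its dash, which follows from how these regions were called. Dashes are not Tet2-/- summit counts, which after scaling were higher at the 5 regions with an own peak in both libraries. The highest point, 50 fragments, belongs to the far upstream group.

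The single region higher in Tet2-/- was in the downstream part of the gene, at chr16:92662070-92662311. It had 47 Tet2-/- fragments (34.5 to 62.5), or 39.9 after scaling, where 15.0 were expected from Tet2+/+, and its deposited fold was 2.55 with a −log10 q of 2.59. An own peak of each library overlapped it, with 29 fragments in Tet2+/+. A region higher in Tet2+/+ had its summit at 92.6582 Mb, so calls in opposite directions lay about 4 kb apart. No upstream region was called higher in Tet2-/-.

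Coverage was then compared at 26 pairs of overlapping own peaks with summits within 100 bp of each other, 1 in the flank, 9 in the gene and 16 upstream. The 100 bp limit left out other overlapping peaks. Among them were those at the single region called higher in Tet2-/-, so no pair lies under that region. In the gene the 9 Tet2+/+ summits carried 252 fragments and the Tet2-/- summits 243, or 206 after scaling, a pooled ratio of 1.22 (95% exact interval 1.02 to 1.46). The median ratio of the 9 was 1.27, with 6 above 1. Upstream the 16 pairs carried 429 and 350 fragments, or 297 after scaling, a pooled ratio of 1.45 (1.25 to 1.67). Their median was 1.43, with 13 above 1. Across 8462 pairs of the genome the median was 1.14, the pooled ratio 1.13, and 66.0% were above 1. Part of this follows from the choice of the interval, since 5 of its pairs lie under regions called higher in Tet2+/+. Without them the pooled ratio was 1.06 (0.864 to 1.30) in the gene, with a median of 1.10 over 7 pairs, and 1.24 (1.05 to 1.47) upstream, with a median of 1.23 over 13. Over the whole interval it was then 1.13 (0.998 to 1.27), where the genome's pairs without a direct call gave 1.08. The intervals of the gene and of the upstream stretch overlap, so the 2 segments were not separable by this measure.

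Single pairs ranged widely. The highest ratio of the gene was at 92.7802 Mb, 34 against 15.3 fragments or 2.23 (1.22 to 4.19), and the lowest at 92.6500 Mb, 25 against 29.7 or 0.842 (0.483 to 1.45). Upstream the highest was 2.81 (1.66 to 4.92) at 93.2431 Mb, and the lowest 0.884 (0.421 to 1.82) at 93.2644 Mb, with 15 against 17.0 fragments. The interval of a pair lay above 1 at 5 of the 26, the same 5 that overlapped a region called higher in Tet2+/+, and included 1 at the other 21. Both readings rest on the same Tet2+/+ coverage. Without those 5 pairs the median over the interval was 1.18, and over the genome's pairs without a direct call 1.11. For most single places the depth therefore did not show a difference.

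The wider surroundings of these pairs were mostly lower in Tet2-/- as well. Such windows hold many more fragments than a summit, so their ratios scatter less from counting error alone. In 25 of the 26 pairs the 10 kb around the Tet2+/+ summit held more fragments than the scaled window of Tet2-/-, against 76.5% of 7221 such pairs in the genome. The median ratio was 1.49 in the gene (9 of 9 above 1), 1.30 upstream (15 of 16 above 1) and 1.14 in the genome. The exception was at 93.0600 Mb, with 148 fragments in Tet2+/+ and 190 in Tet2-/-, or 161 after scaling, a ratio of 0.919 (0.736 to 1.14). Leaving out the pairs with a direct call left 20 of 21 above 1 and a median of 1.30, against 1.12 in the genome. Some of the windows left still held a region called higher in Tet2+/+. Those at 92.7447 and 92.7474 Mb, near the region at 92.7431 Mb, are examples. These ratios are thus not free of the calls the interval was picked by. Windows within the interval overlap and each includes the peak itself, so these are not separate measurements.

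Along the gene the 10-kb ratio was not even. At 92.6421 and 92.6500 Mb, toward the gene's downstream end, the windows held 311 and 238 fragments in Tet2+/+ and 263 and 234 in scaled Tet2-/-, ratios of 1.18 and 1.02. From 92.7349 to 92.7802 Mb the 5 ratios were between 1.49 and 1.82. The largest, at 92.7802 Mb, was 264 against 145 fragments (1.82, 95% exact interval 1.5 to 2.22). Near the start, at 92.8080 and 92.8180 Mb, they were 1.31 and 1.42. This contrast along the gene was noticed in the values and was not tested. Its downstream part also held the single region higher in Tet2-/-, but 2 regions higher in Tet2+/+ too, at 92.6202 and 92.6582 Mb.

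**Figure D4:**
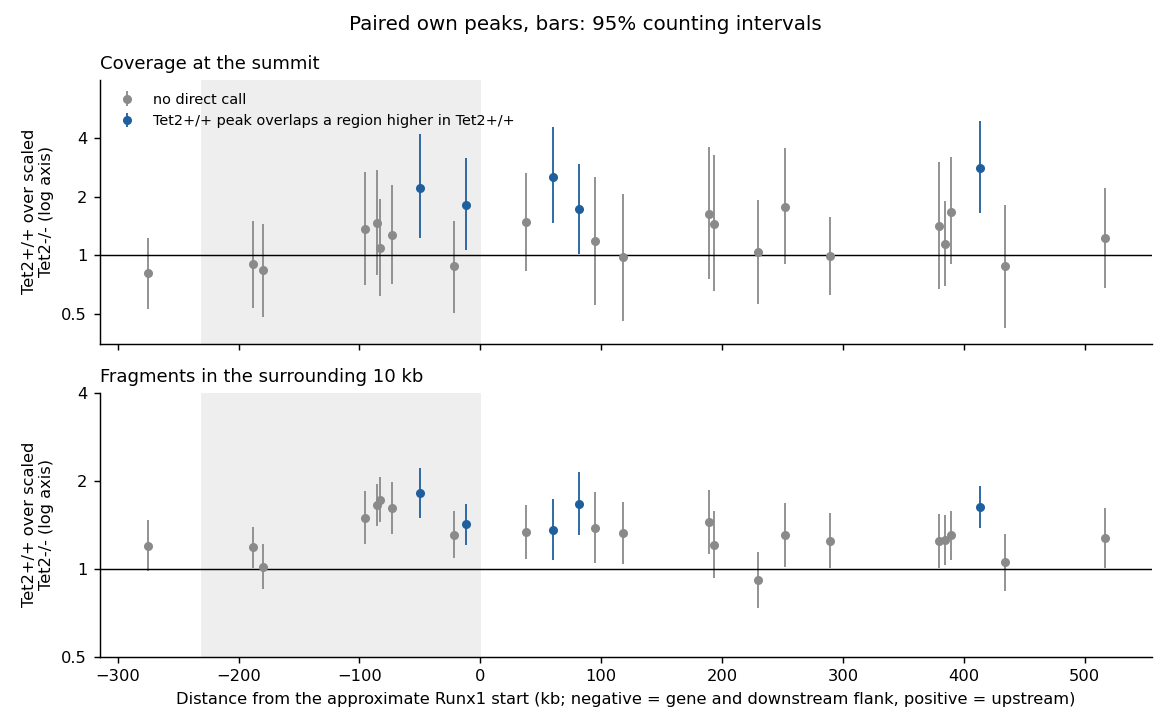
Ratio of Tet2+/+ to depth-scaled Tet2-/- fragments on a log axis for the 26 paired own peaks, at the summit (above) and in the surrounding 10 kb (below), against distance in kb from the approximate Runx1 start. Bars are 95% exact counting intervals, blue marks Tet2+/+ peaks that overlap a region higher in Tet2+/+, grey marks the gene; 25 of 26 points of the lower panel are above 1.

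For scale, the same counts were taken in 3303 windows of 800 kb tiled over the genome, those touching the interval left out. The highest were 38 Tet2+/+ own peaks and 46 Tet2-/- own peaks, where the interval had 58 and 50, and the median was 3 for each. For Tet2-/- the fullest tile was thus close to the interval. The interval's position was chosen on these data while the tiles had fixed edges, so its rank is no finding, and for the regions higher in Tet2+/+ it follows from the choice. The most similar tiles, by the summed difference of the 4 counts, were on chromosome 19 from 32.0 to 32.8 Mb with 36, 43, 7 and 0, on chromosome 15 from 58.4 to 59.2 Mb with 37, 34, 11 and 1, and on chromosome Y from 2.4 to 3.2 Mb with 36, 46, 0 and 1.

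Peaks on either side of the chosen borders were as follows. Just below the interval own peaks of 13 Tet2+/+ and 16 Tet2-/- fragments lay at 92.5474 and 92.5473 Mb, and just inside it were those of 20 fragments in Tet2+/+ at 92.5533 Mb and 60 in Tet2-/- at 92.5548 Mb, so the lower border lay next to a strong peak. At the upper edge the last pair inside had 26 and 25 fragments, at 93.3464 and 93.3465 Mb, and the next outside 13 and 12. At the border of gene and upstream stretch, peaks of 12 and 16 fragments lay 3 kb inside and peaks of 35 and 34 fragments 22.5 and 22.7 kb outside. Leaving out summits within 10 kb of that border changed each count by at most 2.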

How the data were processed

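Fragments carrying 5hmC were labelled, pulled down and sequenced from sonicated genomic DNA of 2 libraries, 1 per genotype. The submitters' processing notes name Bowtie2, MACS2 and the build mm9, with no version or option. From the authors come 4 peak lists, of each library by itself and of each against the other. Per peak they deposited a fold, the −log10 of p and of q, and a score; the score follows the p in all but 1 peak of each own list and was not used for results. In the own lists the expectation followed the library's own coverage in whole fragments per 10 kb.

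Whole fragments at the summit and the expected pileup were recovered from the deposited fold and −log10 p, within 0.001 for 100% of peaks, taking MACS2's pseudocount of 1 and Poisson tail. Above background the expectation came in steps of 0.02, the share of a 200 bp fragment in 10 kb, which gave the fragments per 10 kb. Overlap means at least 1 bp. Intervals are 95% exact Poisson for fragments, Clopper-Pearson for shares and conditional binomial for ratios; amplified fragments are not independent molecules, so they cover counting error only. Scripts, checked on simulated data, used Python 3.11.15, numpy 2.4.6, pandas 2.3.3, scipy 1.17.1 and matplotlib 3.10.9.

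The interval, its members, the lists and the rules were chosen with earlier results of these data known. Named in full were the 5 direct-comparison regions of highest −log10 q per segment and list, the 3 such own peaks per segment and library, and the pairs of highest and lowest ratio. A list of other blood regulator genes was not analysed, since it needs mm9 gene models, which were not used here. Peak positions are 1-based.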

Additional observations from a re-analysis of the deposited data

How the results depend on the processing

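Of 92 recomputed values for 23 results, 73 lay within the counting interval of the reported one (for counts, within 1.5 times, that limit included), 17 lay outside it and 2 reversed. The 2 were the own-peak densities of gene over upstream, which fell from 1.81 to 0.308 in Tet2+/+ and from 1.56 to 0.931 in Tet2-/- with a fold of at least 5, an order compared after seeing the data. For medians of ratios, the interval used was that of the pooled ratio. For 10-kb ratios it counts fragments shared by overlapping windows more than once, so it is too narrow. With a fold of at least 5, own peaks in the gene fell from 24 to 3 in Tet2+/+ and from 20 to 7 in Tet2-/-, own peaks upstream from 30 to 22 and from 29 to 17, and regions higher in Tet2+/+ from 9 to 3 in the gene and from 9 to 2 upstream. With that limit put on both lists, the overlap of Tet2-/- gene peaks was 28.6% and not 75%. Against Tet2+/+ own peaks of any fold, each of these 7 had a counterpart. With both lists limited, the share of Tet2+/+ own peaks under a region higher in Tet2+/+ was 0 in the gene (upper exact limit 70.8%) and 9.09% upstream. With −log10 q of at least 5, gene regions higher in Tet2+/+ were 4 and not 9. Fewer peaks follow from stricter limits. The upstream summit ratio of 1.43 was 1.22 with no depth scaling, 1.16 in the 4 pairs with summits within 20 bp, 1.23 in pairs with −log10 q of at least 5 and 1.23 in pairs without a direct call. The 10-kb ratio was 1.27 in the gene and 1.10 upstream with no depth scaling, and 1.31 and 1.15 with the genome median set to 1; its alternatives, and pairs without a direct call, were chosen after seeing the data. Apart from the change of scale and the limit put on both lists, the cause of these shifts was not tested. No paired analysis was possible because there was a single library of each genotype. Depth limits single places, with a median of 24.5 Tet2+/+ fragments per own peak.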
